A study of Homo sapiens with 12 samples.

Results

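CPI203, which blocks the acetyl-lysine pockets of BET bromodomain proteins, was set directly against an inhibitor of the IRAK kinases (IRAKi, chemical identity not stated), to ask which genes tell the drugs apart. The difference is taken between the arrays labelled CPI203 or IRAKi, 6 of 12 in all. Its errors and p-values come from a limma fit to all 12 arrays, in which the other 6 help to set the cell line terms and the spread. Each CPI203 array is paired with the IRAKi array of the same cell line. Replicate 1 is OCI-LY3, replicate 2 OCI-HBL1 and replicate 3 OCI-LY10. All are established human lines of diffuse large B cell lymphoma of the activated B cell-like subtype (ABC-DLBCL), described in the study's title as MYD88-mutant. CPI203 cells received 500 nM of the drug and carry a label time of 24 h (18 h in the protocol), and IRAKi cells received 50 µM with a label time of 6 h (also 6 h in the protocol). Combo cells were given both drugs and Control cells have a label that says no more; both carry 24 h, enter that fit and give values set side by side. No Control array carries 6 h, so drug and label time cannot be told apart in any difference below that involves IRAKi. CPI203 and Control share the 24 h label. Every group has n = 3, with 1 array for each line, so p-values capture no more than the spread among these samples. Each line is a tumour of its own rather than a repeat culture.

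BET proteins (BRD2 and BRD3 among them) bind acetylated histones and bring in the elongation kinase P-TEFb, which releases paused RNA polymerase II. HEXIM1 holds P-TEFb inactive, and its transcript is widely used as a readout of BET inhibitor activity. IRAK kinases sit below MYD88, the adaptor of Toll-like and interleukin receptors, and pass its signal to NF-kB, which in ABC-DLBCL is chronically active and drives cytokines that signal through JAK and STAT3.

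Levels are log2 values as deposited, and a difference of 1 is a factor of 2 in signal. Array medians lay between 4.64 and 4.73 and correlations between arrays between 0.923 and 0.991. The B lineage genes CD79A, CD79B, MS4A1, PAX5, CD22 and BLNK were above the filter level of 4.20 on all 12 arrays. Markers of T and NK cells averaged 4.21 to 4.59 on the CPI203 arrays and 4.14 to 4.59 on the IRAKi arrays, and myeloid markers 3.79 to 4.18 and 3.72 to 4.19, with CD3D, CD14 and LYZ under 4.20 on each of these 6 arrays. Other members were above the filter level. CD5, CD7 and GNLY of the T and NK list and the red cell marker HBB were above it on all 12 arrays, at up to 5.44. KLRD1 was above it on 10 arrays and CD3G on 8. Some members stood furthest above it in certain lines. TYROBP read 6.94 with CPI203, against 6.87 with IRAKi, and CST3 5.99 against 5.52, both in OCI-LY10, and MPO was above 4.20 on 10 of the 12 arrays. Markers of stroma, endothelium and red cells averaged 4.01 to 4.31 on the CPI203 arrays and 3.93 to 4.28 on the IRAKi arrays, with PECAM1 at 6.27 with CPI203, against 7.0 with IRAKi, in OCI-HBL1 and COL3A1 at 5.60 with CPI203, against 5.58 with IRAKi, in OCI-LY10. GZMB, of the T and NK list, was at 8.94 and 7.82 with CPI203, against 9.09 and 7.54 with IRAKi, in OCI-HBL1 and OCI-LY10. The OCI-LY10 IRAKi array stood apart, with non-specific control probe sets at 4.00 against 3.64 to 3.79 on the other arrays, so counts are also given without it. The 3′ minus 5′ log2 difference of the actin control probe sets, a measure of RNA integrity, was 1.18, 1.15 and 1.41 with CPI203, against 1.50, 1.23 and 1.58 with IRAKi. It was lower with CPI203 in each line, and its part in the results was not tested. On such arrays fewer cells of a type and less RNA per cell cannot be told apart.

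The drugs differed at 753 of 13120 genes, 5.74% of those tested, with 365 higher (2.78%) and 388 lower (2.96%) in CPI203 cells (limma, adjusted p below 0.05). HEXIM1, replication-dependent histones, tubulins and the growth-arrest gene TXNIP were among the genes higher with CPI203. Plasma cell and B cell surface genes, interferon-stimulated genes and amino acid supply genes were among those lower. All 753 went one way in all 3 lines. The calls were made on these same line differences, so this follows largely from the selection. Among all genes tested 3116 (23.8%) were above and 2924 (22.3%) below in all 3 lines. A difference of at least 2-fold was reached by 147 of the called genes (1.12% of all tested), 61 higher and 86 lower. At the threshold, the 10 genes just inside had adjusted p-values of 0.0491 to 0.0498 and differences of 0.40 to 0.93 in size, and the 10 just outside 0.050 to 0.051 and 0.39 to 0.73.

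**Figure D1:**
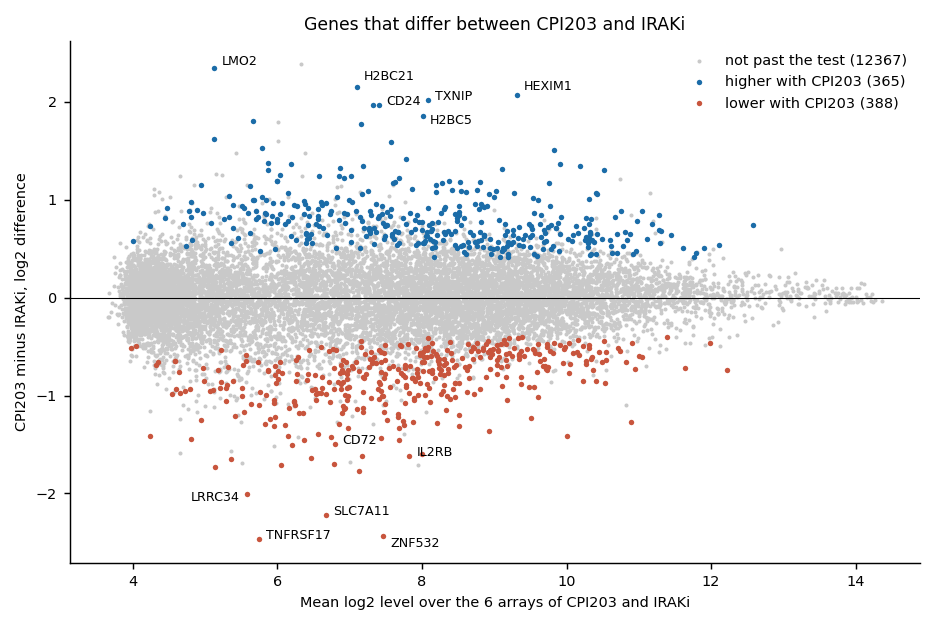
CPI203 minus IRAKi log2 difference (vertical axis) against the mean log2 level over the 6 arrays of both drugs (horizontal axis), 1 point per gene tested. Blue points are the 365 genes higher and red points the 388 lower with CPI203 past the test, and grey points are the other 12367. LMO2 at 2.34 and TNFRSF17 at -2.46 are the called genes furthest from 0 on each side, and 1 grey point, at 2.38, lies above LMO2.

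These counts rest on every line. Without OCI-LY3 limma called 0 genes (2127 at an unadjusted p below 0.05), without OCI-HBL1 9 (2468) and without OCI-LY10 0 (1902), against 2934 at an unadjusted p below 0.05 with all lines. Without the OCI-LY10 IRAKi array alone 130 genes were called, 46 higher and 84 lower, of which 124 were among the 753. With arrays scaled to their poly-A spike-in probe sets, 96 genes were higher and 174 lower, so that 35.6% of calls were higher, against 48.5% on the deposited scale.

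Several genes of the list named for BET proteins and P-TEFb regulators were higher with CPI203. HEXIM1 read 10.26, 10.17 and 10.61 with CPI203, against 7.91, 8.51 and 8.42 with IRAKi (OCI-LY3 first, then OCI-HBL1, then OCI-LY10, the order used from here on). Each CPI203 value exceeds each IRAKi value, and the difference of 2.07 ± 0.20 (SE, adjusted p = 0.0024) is 4.19-fold. BRD2, itself a BET protein, read 10.71, 10.68 and 10.60 with CPI203, against 10.28, 9.93 and 10.07 with IRAKi, again without overlap and with a spread of only 0.05 (SD) among the CPI203 arrays. The difference was 0.57 ± 0.10 (SE, adjusted p = 0.019). BRD3, in the same family, did not pass (0.0012, adjusted p = 1).

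SERTAD1, a regulator of CDK4 activity, read 8.46, 8.16 and 8.25 with CPI203, against 8.06, 6.76 and 6.39 with IRAKi. The groups do not overlap, but the gap was 0.41 in OCI-LY3 and 1.86 in OCI-LY10. The difference was 1.22 ± 0.27 (SE, adjusted p = 0.034). CCNT2, a cyclin subunit of P-TEFb, differed by 0.86 ± 0.17 (SE, adjusted p = 0.022), and ZCCHC24, a zinc finger gene, by 1.02 ± 0.24 (SE, adjusted p = 0.042), both with overlapping groups because the lines start from different levels. CDK9, the kinase subunit, stood at 0.40 and did not pass (adjusted p = 0.24). Of the 14 tested members of this list 5 were higher and 0 lower, 35.7% against 2.78% of all genes, with a median difference of 0.41 against 0.0086 over all genes. This list, like the others, was written with earlier results of these data known. Its share and median therefore describe these data and are no independent test. SERTAD1 and ZCCHC24, counted among its higher members, are neither BET proteins nor P-TEFb subunits. When the OCI-LY10 IRAKi array was left out, only HEXIM1 stayed called (adjusted p = 0.018).

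**Figure D2:**
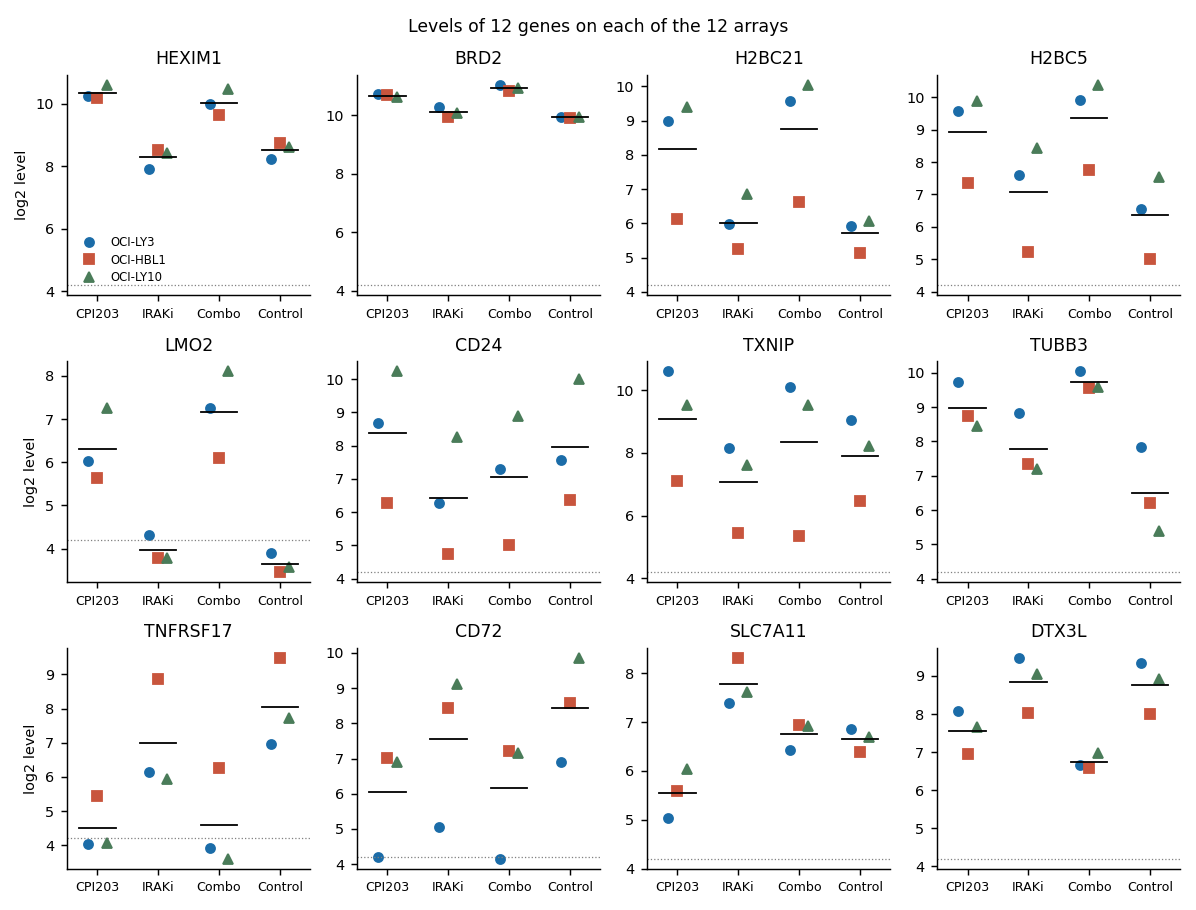
Log2 level (vertical axis) of 12 genes on each of the 12 arrays, with CPI203, IRAKi, Combo and Control from left to right in each panel, 1 marker per cell line and a bar at the mean of the 3 lines. The dotted line is the filter level of 4.20. HEXIM1 with CPI203 lies between 10.17 and 10.61, above every IRAKi value, and TNFRSF17 with CPI203 lies under the dotted line in OCI-LY3 and OCI-LY10.

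Of the gene lists, the histone genes had the most members called on the higher side. Most replication-dependent histone transcripts end in a stem-loop without a poly-A tail and accumulate while DNA is copied, and linker histones (H1) bind the DNA between nucleosomes. Whether the array signal came from forms with or without a tail was not tested. Of 43 histone genes tested 7 were higher and 0 lower, 16.3% against 2.78% of all genes. The median of the list was 0.30, and 25 members were above IRAKi in all 3 lines and 0 below. By line the median was lowest in OCI-HBL1, at 0.11, against 0.36 in OCI-LY3 and 0.57 in OCI-LY10. Leaving out the OCI-LY10 IRAKi array, 3 members were higher and the median was 0.22.

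H2BC21, an H2B gene of the chromosome 1 cluster, read 9.0, 6.14 and 9.39 with CPI203, against 5.98, 5.24 and 6.85 with IRAKi. Every line was higher with CPI203, and OCI-HBL1 least, which at 6.14 with CPI203 lies below OCI-LY10 with IRAKi. The difference was 2.15 ± 0.48 (SE, adjusted p = 0.033). H2BC21 was not called without the OCI-LY10 IRAKi array (adjusted p = 0.12), nor with its probe sets averaged or with only the 6 arrays of both drugs. H2AC6, an H2A gene of the chromosome 6 cluster, read 8.17, 7.56 and 9.20 with CPI203, against 5.12, 5.98 and 7.93 with IRAKi, with its widest gap in OCI-LY3. The difference was 1.97 ± 0.31 (SE, adjusted p = 0.012), and the groups overlap because IRAKi in OCI-LY10 is above CPI203 in OCI-HBL1. H2BC5, an H2B gene, read 9.57, 7.35 and 9.89 with CPI203, against 7.59, 5.23 and 8.43 with IRAKi. Its gap varied least between lines of these 3 genes and gave a difference of 1.85 ± 0.18 (SE, adjusted p = 0.0024).

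H2BC11, a further H2B gene, read 6.22, 5.70 and 7.77 with CPI203, against 4.00, 4.62 and 5.66 with IRAKi, without overlap. IRAKi in OCI-LY3 was below the filter level, so the difference of 1.80 ± 0.29 (SE, adjusted p = 0.012) may be larger there. H2BC11 was not called without the OCI-LY10 IRAKi array (adjusted p = 0.058). The linker histone genes H1-10 and H1-2 were higher by 1.32 and 1.31 and the H2A gene H2AC20 by 0.56, all of which were named after their values were seen. H2AC6 and H2BC11 were read by probe sets that match several transcripts, and copies of these genes are nearly identical, so neighbouring family members may share the signal. H2BC8 and H3C4, also named after their values were seen, stood at 1.15 and 1.08 and did not pass. H2BC8 moved by 2.81 in OCI-LY10 and by 0.13 in OCI-LY3.

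The start regions of the 4 histone genes furthest apart are shown because they carry the elements that histone promoters share. Sequences are from RefSeq, build GRCh38.p14, and run 5′ to 3′ on the gene's strand over 250 bases before to 50 bases after the start. The windows are chr1:149886633-149886932 on the minus strand for H2BC21, chr6:26123922-26124221 on the plus strand for H2AC6, chr6:27132746-27133045 on the minus strand for H2BC11 and chr6:26157871-26158170 on the plus strand for H2BC5, the first of 2 entries for that gene. Capitals mark the octamer ATTTGCAT, the TATA box TATAAA and CCAAT, on either strand.
H2BC21: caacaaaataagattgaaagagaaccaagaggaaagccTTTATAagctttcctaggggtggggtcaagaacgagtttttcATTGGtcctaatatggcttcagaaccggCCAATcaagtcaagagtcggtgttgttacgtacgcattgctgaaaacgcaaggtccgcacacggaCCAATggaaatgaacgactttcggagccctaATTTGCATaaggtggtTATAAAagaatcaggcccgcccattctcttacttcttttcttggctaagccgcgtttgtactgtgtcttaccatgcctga
H2AC6: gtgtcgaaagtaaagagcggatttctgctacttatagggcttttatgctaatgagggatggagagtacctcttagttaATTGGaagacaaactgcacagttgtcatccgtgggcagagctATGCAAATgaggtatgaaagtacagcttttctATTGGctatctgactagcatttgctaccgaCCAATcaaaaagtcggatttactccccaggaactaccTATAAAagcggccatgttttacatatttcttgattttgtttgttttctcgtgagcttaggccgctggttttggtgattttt
H2BC11: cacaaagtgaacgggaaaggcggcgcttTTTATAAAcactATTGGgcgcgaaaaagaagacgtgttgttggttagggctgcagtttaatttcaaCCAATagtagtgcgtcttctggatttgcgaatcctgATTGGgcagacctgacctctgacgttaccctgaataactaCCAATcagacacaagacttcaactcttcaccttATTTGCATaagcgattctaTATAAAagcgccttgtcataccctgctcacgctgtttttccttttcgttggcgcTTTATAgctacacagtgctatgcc
H2BC5: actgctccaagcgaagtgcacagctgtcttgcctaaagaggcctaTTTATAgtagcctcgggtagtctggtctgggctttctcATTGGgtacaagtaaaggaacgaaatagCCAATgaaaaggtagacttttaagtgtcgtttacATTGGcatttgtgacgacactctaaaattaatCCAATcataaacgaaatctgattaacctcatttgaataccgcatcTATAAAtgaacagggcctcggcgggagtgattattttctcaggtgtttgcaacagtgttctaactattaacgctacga

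The octamer is the binding sequence of the POU factors OCT1 and OCT2. In H2BC21 it lies 46 to 39 bases and in H2BC11 47 to 40 bases before the start, just ahead of the TATA box, and in H2AC6 on the other strand 130 to 123 bases before it. No octamer match overlaps another motif, and TATAAA on the plus and minus strands overlaps once in H2BC11. H2BC5 holds 2 TATA box matches and 4 CCAAT matches in this window, and the letters of the octamer are not in it. On both strands, the octamer was found in 1.77% of 35116 promoter windows of this length. Counted by gene, it was in 1.97% of all tested genes with a window and in 18 of the 39 tested histone genes with one. TATAAA was in 11.5% of all windows, 9.58% of all tested genes with a window and 27 of the 39. For CCAAT these were 34.6%, 43.1% and 33. The 18 histone genes with the octamer had a median difference of 0.74 and 4 calls, and the 21 without it 0.23 and 3 calls. All with the octamer except H3C4 are H2A or H2B genes, and most without it are H3 or H4 genes. This split is therefore largely one by histone class, and a link of the octamer to the difference was not tested. The motif matches describe the letters, not bound sites.

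**Figure D3:**
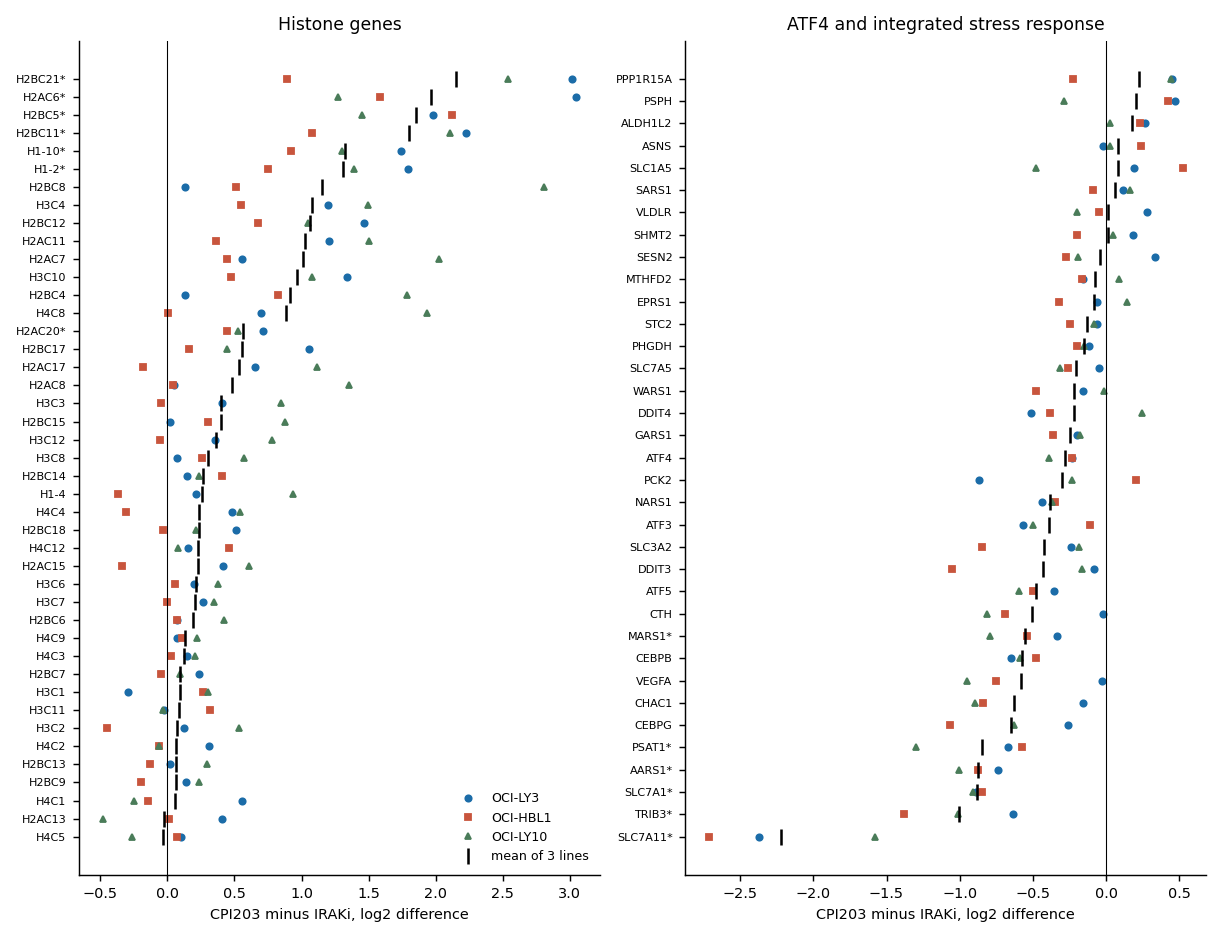
CPI203 minus IRAKi log2 difference (horizontal axis) in each cell line for the 43 histone genes (left) and the 35 genes of the ATF4 and integrated stress response list (right), ordered by the mean of the 3 lines, which is the black bar. A star marks a gene past the test. Stars lie to the right of 0 among the histones (7) and to the left among the ATF4 genes (6), and the line markers of H2BC21 run from 0.89 to 3.01.

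The called gene furthest on the higher side was LMO2, a LIM-domain adaptor that bridges transcription factors and is expressed in germinal centres. It read 6.02, 5.62 and 7.25 with CPI203, against 4.31, 3.78 and 3.79 with IRAKi. The groups are well apart, and IRAKi was below the filter level in OCI-HBL1 and OCI-LY10, so the difference of 2.34 ± 0.37 (SE, adjusted p = 0.012) may be larger there. The other LMO2 probe set above the filter went the opposite way, and the mean of both differed by 1.15 (limma, adjusted p = 0.015). Once the OCI-LY10 IRAKi array was dropped, the adjusted p for LMO2 was 0.054.

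CD24, a B cell surface glycoprotein, read 8.68, 6.27 and 10.23 with CPI203, against 6.29, 4.73 and 8.25 with IRAKi. It was lower in every IRAKi array than in the CPI203 array of the same line, by 1.97 ± 0.21 (SE, adjusted p = 0.0041). The drugs lay on different sides of it: relative to Control, CD24 stood at 0.42 with CPI203 and at -1.55 with IRAKi, of which only the IRAKi value passed (adjusted p = 0.035). Both of these use the same Control arrays. It is among 22 genes called for IRAKi against Control, 15 higher (0.114%) and 7 lower (0.0534%).

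TXNIP, which binds thioredoxin and restrains glucose uptake, read 10.60, 7.12 and 9.54 with CPI203, against 8.17, 5.44 and 7.61 with IRAKi. Each line kept its place, OCI-LY3 highest and OCI-HBL1 lowest, and differed by 1.68 to 2.44. The difference was 2.01 ± 0.40 (SE, adjusted p = 0.023). In the list of TXNIP, FOXO and growth-arrest genes 4 of 27 were higher (14.8% against 2.78%) and 1 lower, with a median of 0.22. The higher ones include the transcriptional co-regulator CITED2 at 1.34 ± 0.12 (SE, adjusted p = 0.0017) and the antiproliferative genes TOB1 at 0.95 ± 0.16 (SE, adjusted p = 0.015) and BTG1 at 0.78 ± 0.13 (SE, adjusted p = 0.015). CITED2 read 8.42, 7.63 and 7.52 with CPI203, against 6.91, 6.28 and 6.35 with IRAKi, without overlap and with line differences between 1.17 and 1.51. RBL2, a pocket protein related to RB1, was the lower one (-0.66). For RBL2 1 of 4 probe sets above the filter went the other way, and the mean of the 4, at -0.34, did not pass (limma, adjusted p = 0.090). With the OCI-LY10 IRAKi array left out, 3 of the 27 stayed higher, and TXNIP had an adjusted p of 0.093.

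Of 17 tubulin genes tested, which encode the subunits of microtubules, 4 were higher (23.5% against 2.78%) and 0 lower, and the list's median was 0.19. The list went both ways, with 9 members above IRAKi in all 3 lines and 5 below, the lowest at -0.70. TUBB3, the neuronal beta isotype, read 9.72, 8.74 and 8.45 with CPI203, against 8.82, 7.33 and 7.19 with IRAKi. OCI-LY3 with IRAKi lies above OCI-HBL1 and OCI-LY10 with CPI203, so the groups overlap although each line was higher, by 1.19 ± 0.29 (SE, adjusted p = 0.044). TUBB2A stood at 1.06 ± 0.24 (SE, adjusted p = 0.036), TUBB6 at 1.00 ± 0.17 (SE, adjusted p = 0.015) and TUBA1A at 0.88 ± 0.13 (SE, adjusted p = 0.0099). As with the histones, the probe sets of these 4 genes may match several transcripts, so family members may share the signal. TUBB6 read 7.73, 10.14 and 12.42 with CPI203, against 6.35, 9.10 and 11.86 with IRAKi, so the lines lie far apart and each was higher with CPI203. In the fit without the OCI-LY10 IRAKi array only 1 stayed called, TUBB6 (adjusted p = 0.027).

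The remaining genes among the 15 called furthest on the higher side come from unrelated families. SERPINE2, a protease inhibitor, read 8.44, 6.35 and 9.34 with CPI203, against 6.36, 5.04 and 7.41 with IRAKi and had a small error for its size, 1.77 ± 0.15 (SE, adjusted p = 0.0017). MARCKSL1, a membrane-bound regulator of actin, read 10.60, 10.76 and 10.37 with CPI203, against 9.29, 9.44 and 8.47 with IRAKi, without overlap and with a difference of 1.51 ± 0.22 (SE, adjusted p = 0.0093). FAM222A differed by 1.62, FGD6 by 1.59, NMT2, a protein myristoyltransferase, by 1.53, GCH1, the first enzyme of tetrahydrobiopterin synthesis, by 1.41, and the carbonic anhydrase CA2 by 1.37. Groups did not overlap for 6 of these 15 genes, which were picked for large differences. The share over all genes tested was not computed.

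On the lower side the largest difference was in TNFRSF17, the plasma cell receptor BCMA. TNFRSF17 read 4.05, 5.45 and 4.06 with CPI203, against 6.14, 8.87 and 5.94 with IRAKi. With CPI203 OCI-LY3 and OCI-LY10 are below the filter level, so the difference of -2.46 ± 0.29 (SE, adjusted p = 0.0046) may be larger there, and OCI-HBL1 has the widest gap, -3.42. SLAMF7, a surface receptor of plasma cells, read 8.75, 9.67 and 6.34 with CPI203, against 9.61, 11.43 and 7.81 with IRAKi, a difference of -1.37 ± 0.32 (SE, adjusted p = 0.04). TNFRSF13B, the receptor TACI, differed by -0.66 ± 0.16 (SE, adjusted p = 0.045). In the plasma cell and secretory list these 3 of 23 were lower (2.96% of all genes), 0 were higher, and the median was -0.08. PRDM1, the master regulator of that programme, stood at -0.33 and did not pass (adjusted p = 0.36). When the OCI-LY10 IRAKi array was left out, TNFRSF17 alone stayed called (adjusted p = 0.018).

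B cell identity and receptor genes went both ways. Of 42 tested 6 were lower (14.3% against 2.96%) and 2 higher (4.76%), CD24 and LMO2. CD72, an inhibitory coreceptor of the B cell receptor, read 4.21, 7.01 and 6.91 with CPI203, against 5.05, 8.44 and 9.13 with IRAKi. It was lower with CPI203 in each line, least in OCI-LY3, where its level was lowest. The difference was -1.50 ± 0.32 (SE, adjusted p = 0.03). FCRL5, an Fc receptor-like surface protein, differed by -1.30 ± 0.19 (SE, adjusted p = 0.0093), the adaptor BANK1 by -1.04 ± 0.25 (SE, adjusted p = 0.044) and the SRC-family kinase BLK by -1.01 ± 0.16 (SE, adjusted p = 0.012). Relative to the shared Control arrays FCRL5 stood at -0.13 with CPI203 and at 1.18 with IRAKi, and BLK at -1.44 and -0.43. The list's median was -0.09, with -0.24 in OCI-LY3 and -0.25 in OCI-LY10 against 0.16 in OCI-HBL1. With the OCI-LY10 IRAKi array left out, 1 member was higher and 2 were lower.

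Genes that mark the ABC subtype were lower where they were called. Of 27 tested 5 were lower (18.5% against 2.96%) and 0 higher, with a median of -0.19. BATF, an AP-1 family factor of activated B cells, read 10.50, 9.02 and 11.27 with CPI203, against 12.17, 10.24 and 12.19 with IRAKi, lower with CPI203 in each line. The difference was -1.27 ± 0.28 (SE, adjusted p = 0.032). IL12A, a cytokine subunit, differed by -1.10 ± 0.15 (SE, adjusted p = 0.008) and TBL1XR1, a corepressor subunit, by -0.72 ± 0.10 (SE, adjusted p = 0.0093). For TBL1XR1 1 of 4 probe sets above the filter went the other way. IRF4, the factor on which these lymphomas depend, did not pass (-0.19, adjusted p = 0.73). IL2RB, a shared subunit of the interleukin receptors for IL2 and IL15, was not in this list and read 8.34, 5.43 and 7.27 with CPI203, against 9.40, 7.27 and 9.22 with IRAKi, a difference of -1.62 ± 0.25 (SE, adjusted p = 0.01). In the fit without the OCI-LY10 IRAKi array 2 of the 27 were lower, and IL2RB had an adjusted p of 0.055.

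Other genes far on the lower side were the zinc finger genes ZNF532 at -2.43, ZNF32 at -1.71 and PRDM10 at -1.70, and LRRC34 at -2.00. NIPAL2, of a family of magnesium transporters, had the smallest adjusted p of the 30 called genes furthest apart. NIPAL2 read 6.85, 4.98 and 6.90 with CPI203, against 8.65, 6.88 and 8.51 with IRAKi, with nearly the same gap in each line, and differed by -1.77 ± 0.13 (SE, adjusted p = 0.00078). SLC6A3, the dopamine transporter gene, read 3.88, 3.87 and 5.07 with CPI203, against 4.47, 5.18 and 8.35 with IRAKi and just passed, at -1.73 ± 0.43 (SE, adjusted p = 0.049). Most of that comes from OCI-LY10, and without the OCI-LY10 IRAKi array it did not pass (adjusted p = 0.17). KIF26B, CEP41, MYOCD and SLC16A9 stood at -1.65, -1.64, -1.60 and -1.50, and for SLC16A9 1 of 2 probe sets went the other way. Groups did not overlap for 9 of the 15 called genes furthest on this side, again without a share over all genes tested to set it against.

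Interferon-stimulated genes had the lowest median of the 35 lists, -0.47. Of 42 tested 8 were lower (19.0% against 2.96%) and 0 higher, 23 were below IRAKi in all 3 lines, and the line medians were -0.38 in both OCI-LY3 and OCI-LY10 and -0.50 in OCI-HBL1. DTX3L, a ubiquitin ligase that works with PARP9, read 8.08, 6.95 and 7.66 with CPI203, against 9.46, 8.02 and 9.06 with IRAKi. Lines kept their order and each was lower with CPI203, with a difference of -1.28 ± 0.22 (SE, adjusted p = 0.015). TRIM22, an antiviral ubiquitin ligase, read 9.70, 7.48 and 9.50 with CPI203, against 10.57, 8.91 and 10.89 with IRAKi, a difference of -1.23 ± 0.17 (SE, adjusted p = 0.0076). SAMD9L, an antiviral restriction factor, differed by -1.04 ± 0.19 (SE, adjusted p = 0.019) and USP18, which removes ISG15, by -0.94 ± 0.23 (SE, adjusted p = 0.045).

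USP18 was below the filter level with CPI203 in OCI-LY3, so the gap there may be larger. The double-stranded RNA sensors EIF2AK2 and IFIH1 and the ADP-ribosyltransferases PARP14 and PARP9 were the other 4 members called, named after their values were seen. EIF2AK2 stood at -0.87 and PARP14 at -0.87. Relative to Control the medians of the list were -0.74 with CPI203 and -0.26 with IRAKi, values that share the Control arrays. Leaving out the OCI-LY10 IRAKi array, 2 members were lower and the median was -0.42.

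Some genes of the ATF4 and integrated stress response list, many of which supply amino acids or charge transfer RNAs, were lower with CPI203. Of 35 tested 6 were lower (17.1% against 2.96%) and 0 higher, with a median of -0.28 and 22 members below IRAKi in all 3 lines. SLC7A11, the cystine transporter subunit, read 5.03, 5.60 and 6.04 with CPI203, against 7.40, 8.31 and 7.62 with IRAKi. Every CPI203 value lies under every IRAKi value, with a difference of -2.22 ± 0.26 (SE, adjusted p = 0.0046). Control read 6.86, 6.39 and 6.70, between the drugs in each line, and relative to it SLC7A11 stood at -1.09 with CPI203 and at 1.13 with IRAKi, of which the CPI203 value passed (adjusted p = 0.025) and the IRAKi value did not (adjusted p = 0.11).

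TRIB3, a pseudokinase that feeds back on ATF4, read 7.65, 8.24 and 7.63 with CPI203, against 8.28, 9.62 and 8.64 with IRAKi, without overlap. The difference was -1.01 ± 0.16 (SE, adjusted p = 0.012). SLC7A1, a carrier of cationic amino acids, differed by -0.88 ± 0.15 (SE, adjusted p = 0.014), with gaps of -0.89, -0.85 and -0.91 in the 3 lines. AARS1, the alanyl-tRNA synthetase, differed by -0.87 ± 0.15 (SE, adjusted p = 0.015), and PSAT1 and MARS1, named after their values were seen, by -0.85 and -0.56. ATF4 itself stood at -0.28 and asparagine synthetase, ASNS, at 0.08, and neither passed. In the fit without the OCI-LY10 IRAKi array SLC7A11 alone stayed called (adjusted p = 0.018), with a list median of -0.35.

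The AARS1 start region is shown because it holds the core TGATGNAA of the amino acid response element. The window is chr16:70289457-70289756 on the minus strand (RefSeq, GRCh38.p14), and capitals mark the match, which lies on the opposite strand 187 to 180 bases before the start.
AARS1: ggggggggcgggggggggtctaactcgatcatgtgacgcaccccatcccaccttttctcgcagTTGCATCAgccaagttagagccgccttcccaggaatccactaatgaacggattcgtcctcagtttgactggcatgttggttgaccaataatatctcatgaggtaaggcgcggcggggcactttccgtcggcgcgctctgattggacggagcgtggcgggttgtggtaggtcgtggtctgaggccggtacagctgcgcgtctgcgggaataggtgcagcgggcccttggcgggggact

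On both strands TGATGNAA was in 3.62% of the 35116 windows and, counted by gene, in 3.02% of all tested genes with a window. It was in 11 of the 30 tested genes of the list that have a window, and in 3 of the 5 called ones that have one. No letters of that core were in the windows of the 4 histone genes shown above.

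Within the MYD88 pathway itself few genes told the drugs apart. MYD88 read 8.89, 8.36 and 9.28 with CPI203, against 9.53, 8.76 and 9.63 with IRAKi and fell short of the threshold with CPI203 lower in each line (-0.47 ± 0.13, adjusted p = 0.064). IRAK1 stood at -0.48 ± 0.17 (adjusted p = 0.13) and IRAK2, near the filter level, at -0.22 (adjusted p = 0.49), and IRAK4 had no probe set of its own in the table used here. Of 27 genes of MYD88, IRAK and Toll-like receptor signalling, 1 was higher (3.70% against 2.78%) and 2 lower (7.41% against 2.96%). PELI1, a ubiquitin ligase that acts on IRAK1, read 9.89, 10.15 and 10.42 with CPI203, against 9.10, 9.41 and 9.74 with IRAKi, without overlap and higher by 0.74 ± 0.18 (SE, adjusted p = 0.047). TLR10, a Toll-like receptor, differed by -1.05 ± 0.17 (SE, adjusted p = 0.013) and the transcription factor IRF5 by -0.74 ± 0.18 (SE, adjusted p = 0.045). For TLR10 1 of 3 probe sets went the other way, and the mean of the 3 did not pass (adjusted p = 0.11). Without the OCI-LY10 IRAKi array none of these 3 was called.

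No NF-kB subunit passed. NFKB1 stood at -0.021 ± 0.15, REL at 0.067 ± 0.24, RELA at -0.016 ± 0.17, NFKB2 at -0.15 ± 0.18 and RELB at -0.36 ± 0.13, all short of the threshold. The feedback inhibitors stood at 0.50 ± 0.21 for NFKBIA, 0.57 ± 0.26 for NFKBIZ and 0.39 ± 0.31 for TNFAIP3, and did not pass either. Of 24 subunits and regulators, the paracaspase gene MALT1 was higher at 0.57 ± 0.14 (SE, adjusted p = 0.045), and the kinase gene IKBKB was lower at -0.81 ± 0.17 (SE, adjusted p = 0.028). Each is 4.17% of the list, near the 2.78% and 2.96% of all genes. IKBKB was lower in the CPI203 array of each line and in all 11 of its probe sets above the filter, while 1 of 4 MALT1 probe sets went the other way and the mean of the 4 did not pass (adjusted p = 0.49). Without the OCI-LY10 IRAKi array IKBKB stayed called (adjusted p = 0.032) and MALT1 did not.

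Among 38 NF-kB target genes SOD2, mitochondrial superoxide dismutase, was higher at 0.86 ± 0.14 (SE, adjusted p = 0.014), and BATF and the costimulatory gene CD80 (-0.83 ± 0.20 (SE, adjusted p = 0.046)) were lower. These counts, 1 of 38 (2.63%) and 2 of 38 (5.26%), lie near those of all genes, 2.78% and 2.96%, and the median was -0.19. The cytokine genes had wide errors. IL10 read 6.08, 4.08 and 8.32 with CPI203, against 9.59, 4.81 and 9.13 with IRAKi, with gaps of -3.51, -0.72 and -0.81, and stood at -1.68 ± 0.71 (adjusted p = 0.2). IL6 read 6.00, 3.71 and 4.26 with CPI203, against 8.71, 3.97 and 4.09 with IRAKi and was measured well above the filter in OCI-LY3 only, at -0.93 ± 0.57 over the lines (adjusted p = 0.38). STAT3 stood at -0.19 ± 0.23. Of 26 genes of IL6, IL10 and JAK-STAT3 signalling JAK1 was higher at 0.59 ± 0.13 (SE, adjusted p = 0.035) and BATF lower, 3.85% each way, near the shares of all genes. Chemokines and trafficking receptors had a median of -0.37, and 0 of 23 passed (limma). Without the OCI-LY10 IRAKi array CD80 stayed called (adjusted p = 0.045) and SOD2, JAK1 and BATF did not.

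MYC, the transcription factor most often named as a BET inhibitor target, did not pass. MYC read 11.07, 11.25 and 10.71 with CPI203, against 11.39, 11.51 and 10.78 with IRAKi, a difference of -0.22 ± 0.21 (adjusted p = 0.6). Of 22 genes of its network 1 was higher, the MAX partner MXD4 (0.86), and 1 lower, MNT (-0.58), 4.55% each way against 2.78% and 2.96% of all genes. Of 35 ribosome biogenesis factors PPAN was lower (-0.58), 2.86% and so at the share of all genes, with a median of -0.10. Among 45 DNA replication genes MCM2, a subunit of the replicative helicase, was lower at -0.74 ± 0.14 (SE, adjusted p = 0.021), and POLD3, a polymerase delta subunit, at -0.48 ± 0.11 (SE, adjusted p = 0.041). These are 4.44% of the list, near the 2.96% of all genes, and its median was -0.01. CKAP2 alone of 47 mitosis genes was called (0.71), 2.13% and so near the 2.78% of all genes. None of MXD4, MNT, PPAN, MCM2, POLD3 and CKAP2 was called without the OCI-LY10 IRAKi array (adjusted p from 0.097 to 0.16).

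The cell cycle inhibitor CDKN2D was higher at 0.88 ± 0.20 (SE, adjusted p = 0.035), but not called without the OCI-LY10 IRAKi array (adjusted p = 0.074), while CDKN1A stood at 0.46 (adjusted p = 0.24) and CCND2 at -0.52 (adjusted p = 0.28). None of 27 genes of the BCL2 family and apoptosis passed, nor any of 30 heat shock genes, 32 ribosomal protein genes, 34 oxidative phosphorylation subunits or 31 proteasome subunits (limma), with medians of -0.07, 0.14, 0.01, 0.07 and 0.01. BCL2 stood at 0.088 ± 0.16, MCL1 at 0.26 ± 0.15, BCL2L1 at -0.27 ± 0.37 and BCL2L11 at -0.046 ± 0.27. FOS stood at 1.60 ± 0.71 (adjusted p = 0.22) and EGR1 at 0.56 ± 0.28 (adjusted p = 0.27), with CPI203 above IRAKi in each line for both genes.

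**Figure D4:**
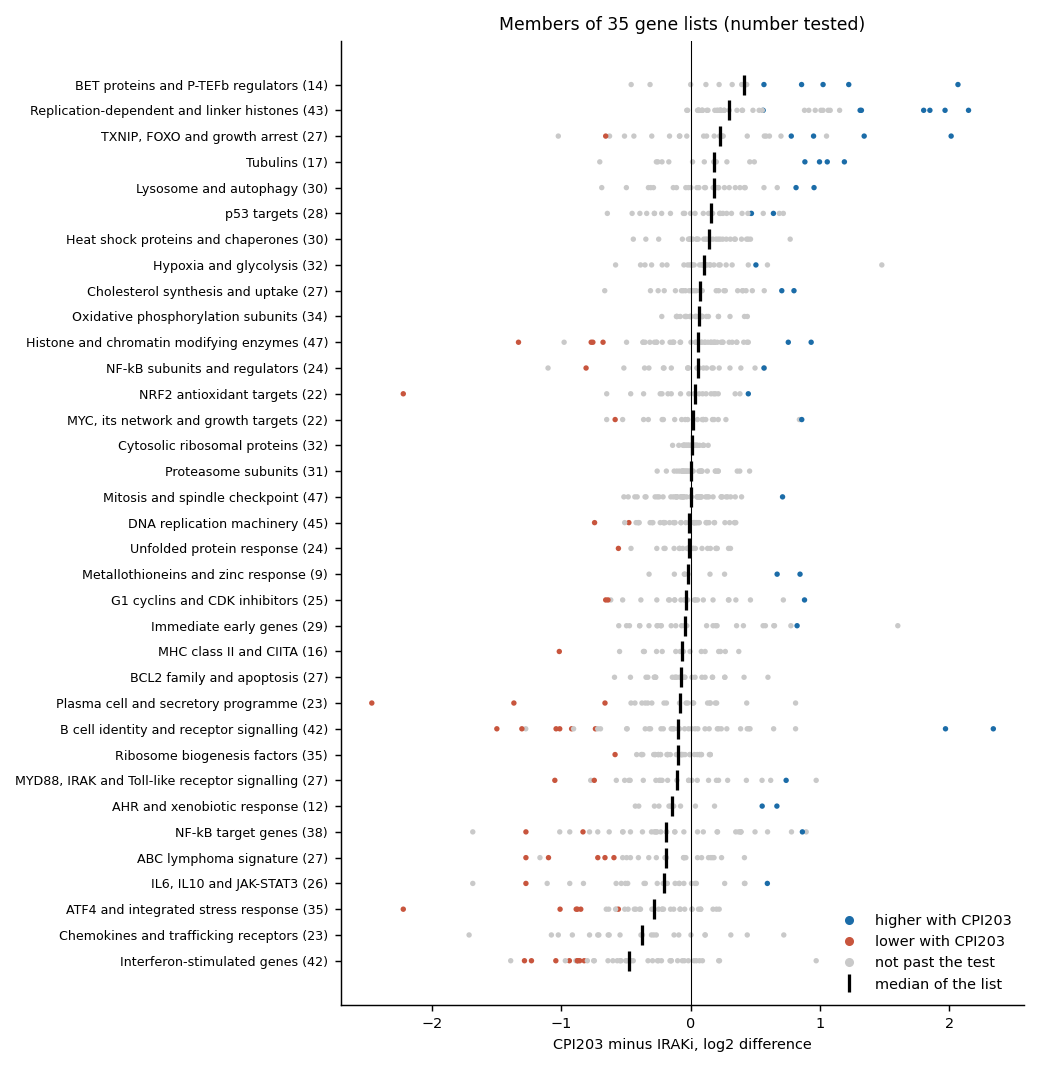
CPI203 minus IRAKi log2 difference (horizontal axis) of each tested member of 35 gene lists, 1 row per list with the number tested in brackets, ordered by the list's median, which is the black bar. Blue points are higher and red points lower with CPI203 past the test. Medians run from 0.41 for the BET and P-TEFb genes to -0.47 for the interferon-stimulated genes.

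Set beside Control, the genes that told the drugs apart stood further away with CPI203. Over the 753 called genes the median size of the log2 difference from Control was 0.68 with CPI203 and 0.20 with IRAKi, against 0.21 and 0.16 over all genes tested. The step from Control was larger with CPI203 in 643 of the 753, 85.4% against 61.4% of all genes. Both differences use the same Control arrays, and the IRAKi step also spans the label times. For CPI203 against Control 908 genes were higher (6.92%) and 815 lower (6.21%). TNFRSF17 stood at -3.53 with CPI203 and -1.07 with IRAKi, HEXIM1 at 1.81 and -0.25, and ZNF532 at -2.65 and -0.22.

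A few genes lay on opposite sides of Control, at least 0.5 away with each drug. TXNIP stood at 1.19 with CPI203 and -0.83 with IRAKi, and neither passed on its own against Control. UTP25, a ribosomal RNA processing factor, stood at -1.11 with CPI203 and 0.51 with IRAKi, and ATP6V1E2, a subunit of the vacuolar proton pump, at -0.50 and 0.89. ATP6V1E2 read 5.62, 5.75 and 6.22 with CPI203, against 6.73, 6.91 and 8.12 with IRAKi, a difference of -1.39 ± 0.20 (SE, adjusted p = 0.0086), and UTP25 read 6.70, 5.47 and 6.92 with CPI203, against 7.99, 7.47 and 8.48 with IRAKi, without overlap.

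**Figure D5:**
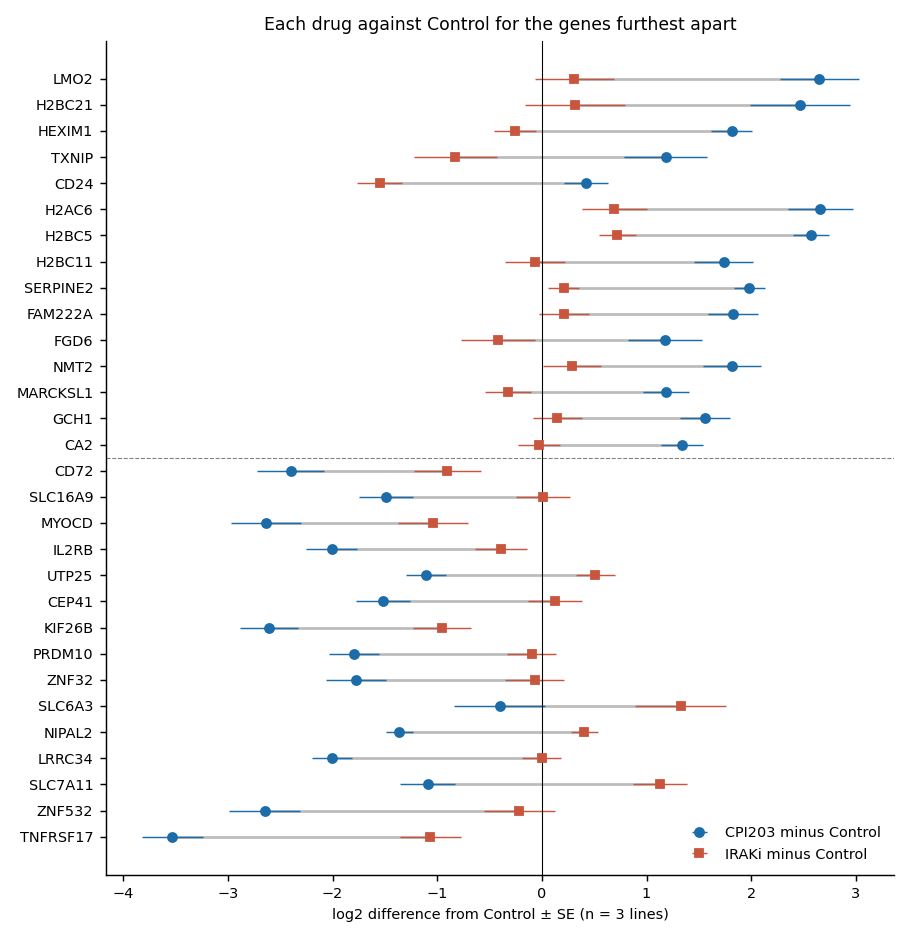
Log2 difference from Control (horizontal axis, ± SE, n = 3 lines) with CPI203 (blue circles) and with IRAKi (red squares) for the 15 called genes furthest on the higher and the 15 furthest on the lower side, joined by a grey bar. Both points of a gene share the Control arrays. The IRAKi point lies further from 0 for CD24, SLC6A3 and SLC7A11, at -1.55, 1.33 and 1.13, and the CPI203 point for the other genes.

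The Combo arrays do not enter the difference itself, but they are part of the fit behind the calls, so they are no independent reading of the same genes. The Combo mean lay nearer the CPI203 than the IRAKi mean for 615 of the 753 called genes, 81.7% against 61.8% of all genes tested. For genes higher with CPI203 the share was 77.3% and for genes lower 85.8%. Combo shares the 24 h label with CPI203, so drug and label time cannot be told apart here either. Combo lay beyond CPI203, away from IRAKi, for 344 of the 753 (45.7% against 44.9% of all genes) and beyond IRAKi for 29 (3.85% against 25.9%).

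HEXIM1 read 9.99, 9.62 and 10.48 with Combo and TNFRSF17 3.91, 6.27 and 3.61, both nearer their CPI203 than their IRAKi levels. Nearer IRAKi were CD24, which read 7.29, 5.01 and 8.88 with Combo, and SLC7A11, at 6.42, 6.94 and 6.92. ARID5B, a DNA-binding partner of histone demethylases, read 5.81, 7.26 and 7.99 with CPI203, against 7.38, 8.50 and 9.18 with IRAKi, and 4.43, 5.85 and 6.64 with Combo, below both single drugs in each line. DTX3L, at 6.67, 6.58 and 6.99 with Combo, did the same.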

How the data were processed

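Total RNA of 150 ng per sample was made into biotin-labelled cRNA and read on 12 Affymetrix arrays. The values are log2 levels, which the authors made with RMA in Affymetrix Expression Console 1.1, per the submitters' processing notes; they were used as deposited, and for the probe library and genome build the sources used here give no name. Of 49386 probe sets, 45253 carry 1 gene in the platform annotation, and each gene is represented by that with the highest mean over the 12 arrays. Genes above the 40th percentile of all values (4.20) in at least 3 arrays were tested, 13120 of 18239.

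limma 3.58.1 in R 4.3.3 was fitted to all 12 arrays with treatment and cell line as terms (6 residual degrees of freedom, prior 3.66), and the contrast CPI203 minus IRAKi was tested two-sided with Benjamini-Hochberg adjustment. The cell line pairs the arrays, and deviations from the group means correlated at 0.890, 0.898 and 0.879 within the 3 lines. The number of arrays limits the precision. On simulated data with the same 13120 genes, 67 genes were moved by 0.5, 67 by 1 and 66 by 2 on the log2 scale. They moved with CPI203 only, under independent noise, and no other treatment effect was kept. The test found 19.4%, 65.7% and 100% of them, with 5 unmoved genes called. The adjusted threshold depends on the share of genes that differ, which was set by hand there. These rates therefore need not hold for the real comparison.

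The members, 38 gene lists and tests were chosen with earlier results of these data known. Named genes are the 15 highest and 15 lowest called differences, up to 4 called members of each list in its direction and up to 2 in the other, a panel of BET, MYD88, NF-kB, apoptosis and cell cycle genes, called genes at least 0.5 on opposite sides of Control, and the 10 nearest the threshold on each side. Of 147 named genes tested, 23 had a probe set above the filter that went the other way.

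Alternatives were other gene summaries, filters, normalizations, variance settings, pairings, thresholds and left-out arrays.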

Additional observations from a re-analysis of the deposited data

Results flagged for a closer look

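IRF4, the factor on which ABC-DLBCL lines depend, was higher with CPI203 in OCI-HBL1, by 0.55 on the log2 scale, and lower in OCI-LY3, at -0.72. JUN, an AP-1 subunit, stood at 0.84 in OCI-HBL1 and at -0.86 in OCI-LY3. TNFAIP3, the NF-kB feedback inhibitor A20, stood at 0.98 in OCI-LY10 and at -0.62 in OCI-LY3. These 3 genes were picked out because lines moved opposite ways by at least 0.5. Each value is 1 array against 1 array, so the difference between lines was not tested.

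Non-specific control probe sets, which no comparison uses, read 4.00 on the OCI-LY10 IRAKi array, against 3.70 on the Control array of that line and 3.64 to 3.79 on the 11 other arrays.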

How the results depend on the processing

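The counts moved with several choices. In 1725 comparisons of the 108 named called genes with an alternative, 976 kept the call and 749 lost it. None turned its sign. That follows largely from the selection, because every called gene went one way in all 3 lines, and it is no sign of stability. Scaled to the poly-A spike-ins, 270 genes were called (96 higher, 174 lower). Array weights gave 1182 (555 higher, 627 lower) and trend and robust estimation 561 higher. Every probe set on its own gave 1602 calls (871 higher, 731 lower). Without the pairing (no replicate block) limma called 0 genes, 0 higher and 0 lower, and 586 had an unadjusted p below 0.05; cell line as a random replicate block gave 469 (226 higher, 243 lower). A fit of only the 6 arrays gave 183 (74 higher, 109 lower), of which 167 were among the 753. Leaving out 1 line or the OCI-LY10 IRAKi array gave 0 to 130 calls, 0 to 46 higher and 0 to 84 lower. An adjusted p below 0.01 left 87 (34 higher, 53 lower), and at least 2-fold 147 (61 higher, 86 lower). Of the 30 called genes furthest apart, 30 stayed called with poly-A scaling, 26 with probe sets averaged per gene, 23 with only the 6 arrays and 5 without OCI-HBL1. The cause of these moves was not tested, except that leaving out arrays and lines leaves fewer samples. A signal near the filter level limits LMO2 and TNFRSF17, whose lower group lies partly under it.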

Other observations

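Several lists with few calls still hold genes that told the drugs apart. The metallothioneins MT2A and MT1X, which bind zinc and copper, were higher with CPI203, at 0.85 ± 0.21 (SE, adjusted p = 0.047, limma) and 0.67 ± 0.17 (adjusted p = 0.048), with 2 of 9 tested members higher (22.2% against 2.78% of all genes) and 0 lower. The median of that list was -0.02, so its typical member was not higher. MT2A read 12.64, 10.57 and 11.90 with CPI203, against 11.38, 9.93 and 11.26 with IRAKi, so that each line was higher and OCI-LY3 most. The lysosomal genes NEU1, a sialidase, and CTSZ, a cathepsin, were higher by 0.95 ± 0.20 and 0.82 ± 0.15, 2 of 30 in their list (6.67%). IDI1 and MYLIP, of cholesterol synthesis and of LDL receptor turnover, were higher by 0.71 ± 0.16 and 0.80 ± 0.18, 2 of 27 (7.41%). Without the OCI-LY10 IRAKi array none of these 6 genes was called.

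Enzymes that modify chromatin went both ways, with 2 of 47 higher (4.26% against 2.78% of all genes) and 4 lower (8.51% against 2.96%). KDM5B, a demethylase of histone H3, was higher by 0.93 ± 0.18, and the deacetylase SIRT1 by 0.76 ± 0.13. KAT5, an acetyltransferase, was lower, at -0.77 ± 0.17, and so was ARID5B at -1.33 ± 0.17. SIRT1 read 9.73, 10.07 and 10.23 with CPI203, against 9.07, 9.51 and 9.19 with IRAKi, without overlap. RFX5, a factor of MHC class II promoters, was lower at -1.01 ± 0.18, the only 1 of 16 genes in that list to pass (6.25% against 2.96%). Without the OCI-LY10 IRAKi array ARID5B stayed called (adjusted p = 0.030), and KDM5B, SIRT1, KAT5 and RFX5 did not (adjusted p = 0.10, 0.073, 0.13 and 0.065).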
